A study of Mus musculus with 115 samples.

Results

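Cytosolic ribosomal protein genes were followed across mammary fat pads of 115 mice. They were taken as every gene whose symbol begins with Rpl or Rps and a digit, without the S6 kinases (Rps6k) and without pseudogenes, and each gene was represented by the probe set with the highest mean among those that name it alone. This gave 72 genes of 18772 on the array. Of these, 39 encode proteins of the large ribosomal subunit and 24 proteins of the small subunit, which together make 63 core genes. Another 8 are paralogs or retrogenes (Rpl3l, Rpl39l, Rpl10l, Rpl7l1, Rpl32l, Rps27l, Rps4l and Rps23rg1). The last, Rps19bp1, encodes a protein that binds Rps19 and is not itself part of the ribosome, but its symbol meets the rule.

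All mice were untreated females aged 8 weeks on a chow diet, each a backcross of [FVB/N x Spret/Ei] hybrids to FVB/N, so at each autosomal locus a mouse carries FVB/N alleles alone or 1 allele from the Mus spretus strain. The labels give 2 groupings and do not say how either was made. There were 44 mice in lymph cluster 1, 61 in cluster 2 and 10 in cluster 3, and 93 arrays were on plate 1 and 22 on plate 2. The series title names Hipk2, a nuclear protein kinase, as a regulator of white fat. Values are the authors' log2 intensities from robust multi-array averaging (RMA), so each is relative to the rest of the RNA on its array. Array medians lay between 6.16 and 6.45 and pair correlations between 0.928 and 0.992, and the 16 white adipocyte marker genes measured, which check the labelled tissue, had mean log2 values between 9.13 (Cidea) and 12.99 (Lpl). The number of arrays limits the precision.

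A ribosome is built from 2 subunits of ribosomal RNA and proteins, and each core protein is needed in about equal number, so cells keep the messenger RNAs of these proteins in step. Those messages begin at a C within a run of C and T bases, the terminal oligopyrimidine (TOP) tract, through which mTOR signalling controls their translation. Dividing cells, secretory epithelium and activated lymphocytes make many ribosomes, whereas a mature white adipocyte, filled by its lipid droplet, has little cytoplasm. Mitochondria translate with a separate set of ribosomal proteins, encoded by the Mrpl and Mrps genes.

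The bases around the start of 7 core genes and the paralog Rpl3l are shown because genes of this family are known for a run of C and T bases there, and the genes described below differ in how long it is and where it lies. Each line is read 5′ to 3′ on the gene's own strand and starts 40 bases before the start listed by RefSeq on GRCm38.p6, and capitals mark the longest run of C and T that reaches within 20 bases of that start.
Rps12 (chr10:23787190-23787249, minus strand): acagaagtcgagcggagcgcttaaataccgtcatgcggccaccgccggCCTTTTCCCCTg
Rpl13a (chr7:45128726-45128785, minus strand): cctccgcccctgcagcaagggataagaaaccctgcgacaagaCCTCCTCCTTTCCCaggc
Rps27 (chr3:90213629-90213688, minus strand): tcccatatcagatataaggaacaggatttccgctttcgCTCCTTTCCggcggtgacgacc
Rps6 (chr4:86857348-86857407, minus strand): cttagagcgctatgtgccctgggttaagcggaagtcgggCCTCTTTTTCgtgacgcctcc
Rpl5 (chr5:107900488-107900547, plus strand): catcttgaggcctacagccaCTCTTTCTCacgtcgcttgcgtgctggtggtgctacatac
Rps28 (chr17:33824543-33824602, minus strand): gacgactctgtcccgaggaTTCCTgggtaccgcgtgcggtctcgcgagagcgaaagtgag
Rps19 (chr7:24884552-24884611, plus strand): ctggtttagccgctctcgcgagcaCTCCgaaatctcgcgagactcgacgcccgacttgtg
Rpl3l (chr17:24727786-24727845, plus strand): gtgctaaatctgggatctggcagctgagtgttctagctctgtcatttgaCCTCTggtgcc

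The run was 11 bases long in Rps12, 14 in Rpl13a, 9 in Rps27, 10 in Rps6 and 9 in Rpl5, and 5 in Rps28, 4 in Rps19 and 5 in Rpl3l. The RefSeq table listed a start for 51 of the 63 core genes. A run of at least 8 bases reached within 20 bases of the start in 25 of them (49%), against 20.8% of 27025 genes. The median of the longest run was 7 bases in core genes and 5 in all genes. A C followed by 4 bases of C or T stood at the listed start itself in 11 core genes (21.6%), against 2.49% of all genes. Searched on both strands over 250 bases before to 50 after the start, CCGGAAGT was in 10 core genes (19.6%) against 4.0% of all, and TATAA was in 25.5% of core genes and in 25.5% of all. The other motifs searched were CCAAT (31.4% of core genes against 37.9% of all), CTTTTCC (15.7% against 8.13%) and CTCTTTCC (15.7% against 3.04%). These are matches of letters only, with no test, and a start listed a few bases away from the one used in fat pads would hide a run.

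Among the mice of array plate 2, 27 of the 63 core genes were called higher in lymph cluster 2 than in cluster 1, where 1.72% of all probe sets were called in either direction, and among those of plate 1 none was. The 27 calls take their spread from the mice of both plates, and 0 were made when plate 2 was fitted alone. The difference between the plates passed the test for 34 of the core genes, where 2.52% of all probe sets were called, and for fewer under some other settings given with it. That test also took 1 spread from the mice of both plates. The SD of the mean over the 63 core genes was 0.133 in cluster 1 and 0.202 in cluster 2 on plate 2. On plate 1 it was 0.127 in cluster 1 and 0.120 in cluster 2. The mean over the 63 core genes had a median of 10.87 (range 10.69 to 11.16) in the 34 mice of cluster 1 on plate 1 and 10.84 (10.54 to 11.08) in the 50 of cluster 2 there. On plate 2 it was 10.65 (10.43 to 10.91) in the 10 mice of cluster 1 and 10.96 (10.49 to 11.22) in the 11 of cluster 2. The groups overlapped on both plates, but on plate 2 the median of cluster 2 lay above the highest mouse of cluster 1. Cluster 3 had 9 mice on plate 1, with a median of 10.86 (10.73 to 11.06), and 1 mouse on plate 2, at 10.56.

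**Figure D1:**
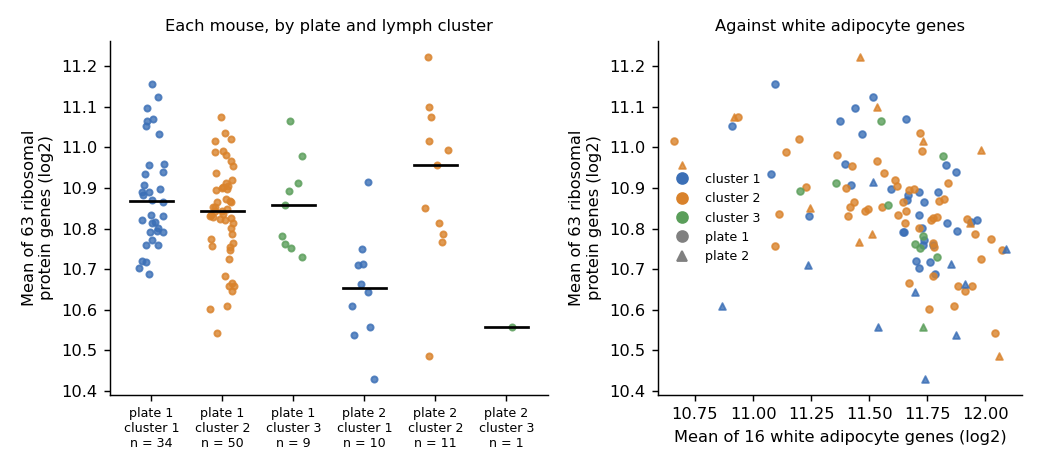
The mean log2 value of the 63 core ribosomal protein genes in each of 115 mice (points), by array plate and lymph cluster on the left (bars are medians), and against the mean of 16 white adipocyte genes on the right. On plate 2 the median of cluster 1 (10.65) lies below that of cluster 2 (10.96), while on plate 1 the medians are 10.87 and 10.84.

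A fit over all probe sets on the 105 mice of clusters 1 and 2 tested whether the difference between clusters depended on plate. It was added after the values by plate had been seen, and limma with Benjamini-Hochberg adjustment over all 28204 probe sets was used here and in every test below, with a call at an adjusted p under 0.05. The difference of cluster 2 from cluster 1 was more positive on plate 2 than on plate 1 for 34 of the 72 genes, and more negative for 0, where 1.37% of all probe sets were called more positive and 1.15% more negative (2.52% in either direction). The count was 20 after quantile normalization was repeated (2.3% of all probe sets) and 8 with values replaced by ranks within each array (1.33%), again with 0 more negative. All 34 were core genes, 23 of the large subunit and 11 of the small. None of the 8 paralogs or retrogenes was called. The median difference between plates was 0.31 on the log2 scale for the 72 genes and -0.01 for all probe sets. No mitochondrial ribosomal protein gene of 74 was called, and 12 had an unadjusted p under 0.05, with a median of -0.09.

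Rps23, a small subunit protein that sits at the decoding centre, had the largest difference among the called genes. Its log2 values in cluster 1 ran from 10.66 to 11.31 with a median of 10.96 on plate 1, and from 10.26 to 11.06 with a median of 10.51 on plate 2. In cluster 2 they ran from 10.26 to 11.29 with a median of 10.93 on plate 1, and from 10.54 to 11.56 with a median of 11.18 on plate 2. Cluster 1 on plate 2 was therefore the low group of the 4, and its range overlapped the others. Cluster 2 lay above cluster 1 by 0.52 (SE 0.10, adjusted p = 0.000468) on plate 2 and by -0.09 (SE 0.05, adjusted p = 1) on plate 1, and the difference between these was 0.62 (SE 0.11, adjusted p = 0.000154).

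The other 7 called genes with the largest differences between plates were Rps28 (0.57), Rpl13a (0.56), Rpl8 (0.50), Rps3 (0.49), Rps4x (0.49), Rpl24 (0.47) and Rps15a (0.44). Rpl13a is also known, in human monocytes, as a silencer of inflammatory messages once it leaves the ribosome, and Rps3 as a DNA repair endonuclease. Rpl13a ran from 10.32 to 11.39 with a median of 10.86 in cluster 1 on plate 2 and from 10.89 to 11.77 with a median of 11.33 in cluster 2 there, while on plate 1 the medians were 11.22 and 11.10. Cluster 1 on plate 2 again had the lowest median of the 4 groups, and the ranges overlapped. Rps4x, the X-linked member of its pair, ran from 10.82 to 11.51 in cluster 1 on plate 2 and from 11.03 to 11.89 in cluster 2 there. The difference between plates for Rps4x was 0.49 (SE 0.08, adjusted p = 2.96e-05). The smallest adjusted p among the 72 genes was that of Rpl19, a large subunit protein, at 1.96e-05, with a difference of 0.42 (SE 0.07); Rpl19 is named for this p after its values were seen. Its medians in clusters 1 and 2 were 12.19 and 12.10 on plate 1, and 11.90 and 12.20 on plate 2. Rpl5 (0.34, adjusted p = 0.0368) and Rpl11 (0.40, adjusted p = 0.0414), which bind Mdm2 and so connect ribosome assembly to p53, were called too. Rpl38, a large subunit protein tied to Hox gene translation in the mouse embryo, differed by 0.39 (SE 0.09, adjusted p = 0.00207).

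Some core genes gave no such call. Rps6, the S6 kinase target of the small subunit, had a difference between plates of 0.13 (SE 0.05, adjusted p = 0.225). Rpl39, a small protein of the exit tunnel, had 0.10 (SE 0.05, adjusted p = 0.326). Rpl10, which completes the large subunit, had 0.16 (SE 0.05, adjusted p = 0.108). Rps19, a small subunit protein mutated in human Diamond-Blackfan anaemia, had -0.07 (SE 0.18, adjusted p = 0.92).

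Within plate 2, cluster 2 was called higher than cluster 1 for 27 of the 72 genes and lower for 0, where 1.02% of all probe sets were called higher and 0.698% lower (1.72% in either direction), and within plate 1 no gene was called in either direction (0% of all probe sets), with 5 at an unadjusted p under 0.05. These counts take the spread from all 105 mice. When the 21 mice of plate 2 were fitted alone, 0 of the 72 were called, and 0% of all probe sets. Within cluster 1, plate 2 was called lower than plate 1 for 28 genes and higher for 0, where 0.794% of all probe sets were called lower and 0.039% higher (0.833% in either direction), with a median of -0.22. Within cluster 2, plate 2 against plate 1 gave 0 calls, where 0.0213% of all probe sets were called higher and 0.121% lower (0.142% in either direction), with 20 genes at an unadjusted p under 0.05 and a median of 0.08.

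Marker genes of other cells were set beside the same groups. The mean of 16 lymphoid genes had a median of 7.25 (7.08 to 7.75) in cluster 1 on plate 2 and 7.89 (7.17 to 8.51) in cluster 2 there, against 7.24 (6.74 to 9.02) and 7.48 (6.07 to 8.79) on plate 1. In the test of the difference between plates, 16 of 16 lymphoid genes were above 0 with a median of 0.44, 19 of 19 cell cycle genes were above 0 with a median of 0.39, and 18 of 18 skeletal muscle genes were below 0 with a median of -1.12. All 16 white adipocyte genes were below 0 too, with a median of -0.12, and 10 of 19 luminal epithelium genes were above 0, with a median of 0.02. Of all 28204 probe sets, 13245 were above 0. Genes on 1 list mark the same cells or process, so these counts are not of independent genes. In that test none of the genes on these 5 lists was called, and 1 lymphoid, 2 cell cycle, 0 muscle, 0 adipocyte and 0 luminal genes had an unadjusted p under 0.05. For cluster 2 against cluster 1 within plate 2, all 16 lymphoid genes were above 0, with a median of 0.60. Of these, 8 had an unadjusted p under 0.05 and 0 were called. The median of the 72 ribosomal protein genes there was 0.27. For plate 2 against plate 1 within cluster 2, 10 of the 16 lymphoid genes had an unadjusted p under 0.05, with a median of 0.41 and 0 called. The part of cell cycle genes in the result was not tested. The mean of 18 skeletal muscle genes had a median of 7.78 (4.97 to 9.99) in cluster 1 on plate 2 and 6.12 (5.31 to 10.10) in cluster 2. With the lymphoid, muscle, adipocyte and luminal means added to the fit, 27 of the 72 genes were called, where 1.96% of all probe sets were, and the median difference was 0.25. Leaving out each of the 21 mice of plate 2 in turn gave between 22 and 41 calls, where between 1.85% and 3.65% of all probe sets were called, with the 22 reached without replicate 44 of cluster 1 and also without replicate 38 of cluster 2. The median difference then lay between 0.28 and 0.35 over the 21 fits. The labels do not say whether plate stands for a day, an extraction or a hybridisation, and the part of any of these was not tested here.

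Averaged over plates, the lymph clusters gave no call. In the fit of cluster and plate as separate terms on all 115 mice, 0 of the 72 genes were called for cluster 2 against 1, cluster 3 against 1 or cluster 3 against 2, where 0% of all probe sets were called in each and 0 of the 72 had an unadjusted p under 0.05. The medians over the 72 genes were 0.02, -0.01 and -0.03. The median for cluster 2 against 1 was -0.04 on plate 1 alone and 0.27 on plate 2 alone, so the pooled value stands for neither plate.

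Between plates, with clusters averaged, no ribosomal protein gene was called either, where 0.0106% of all probe sets were, and 17 had an unadjusted p under 0.05. Of the 72 genes, 69 had a lower fitted level on plate 2, with a median difference of -0.07, against -0.00096 for all probe sets and -0.03 for mitochondrial ribosomal protein genes. Within cluster 1 only 4 of the 72 were higher on plate 2 (median -0.22), but within cluster 2 57 were (median 0.08). The pooled median therefore stands for neither cluster. The largest fitted differences were those of Rps21 (-0.17, SE 0.09), Rpl24 (-0.17, SE 0.06) and Rps12 (-0.16, SE 0.07), each with an adjusted p of 1. Rpl39 ran from 12.38 to 12.86 with a median of 12.53 on plate 1, and from 12.23 to 12.66 with a median of 12.43 on plate 2. The plates overlapped, and the difference was -0.10 (SE 0.02, adjusted p = 0.214). The other probe set for Rpl39, with the lower mean, gave -0.13 (SE 0.03, adjusted p = 0.0279), so the call for this gene turned on the probe set. Rps6 differed by -0.11 (SE 0.03, adjusted p = 0.214). Rpl39 (adjusted p = 0.0177) and Rps6 (adjusted p = 0.0177) passed when each array was centred on its median. They also passed with the 4 marker means added to the fit (adjusted p = 0.0312 and 0.0446). Within cluster 1 the plate difference was -0.15 for Rpl39 (adjusted p = 0.00646) and -0.17 for Rps6 (adjusted p = 0.00574), and within cluster 2 it was -0.05 (adjusted p = 0.618) and -0.04 (adjusted p = 0.751). The SD of the core mean was 0.216 over the 22 mice of plate 2 and 0.123 over the 93 of plate 1.

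Most core genes were lower in mice with more Hipk2. Slopes give how many log2 units a gene moved for each log2 unit of a second quantity, fitted together with lymph cluster and plate. On Hipk2, which ranged from 9.83 to 11.49 over the mice, 45 of the 72 genes fell and 4 rose, where 17.2% of all probe sets fell and 18.5% rose (35.8% in either direction). All 45 that fell were core genes, 26 of 39 in the large subunit and 19 of 24 in the small. The median slope was -0.18 for the 72 genes and -0.01 for all probe sets. Mitochondrial ribosomal protein genes went the other way, with 33 of 74 higher, 0 lower and a median of 0.16.

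Rpl30, a large subunit protein, had the steepest fall, at -0.54 (SE 0.07, adjusted p = 2.11e-10), from log2 values that ran from 7.31 to 8.74 with a median of 8.04. Rps3 followed at -0.44 (SE 0.06, adjusted p = 4.26e-09), Rps12 at -0.43 (SE 0.07, adjusted p = 3.41e-07) and Rpl7 at -0.38 (SE 0.06, adjusted p = 1.68e-07). Rps21 (-0.38), Rpl13 (-0.38), Rps24 (-0.38) and Rps15a (-0.37) complete the 8 largest falls. Rpl5 fell by 0.31 on the log2 scale (SE 0.05, adjusted p = 3.57e-08). Rpl11 had -0.15 (adjusted p = 0.0676), Rps6 -0.06 (adjusted p = 0.0666), Rpl38 -0.11 (adjusted p = 0.0649), Rpl10 -0.04 (adjusted p = 0.298) and Rpl39 -0.04 (adjusted p = 0.315), and none of these passed.

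The 4 that rose with Hipk2 were Rps4l (0.42, SE 0.08, adjusted p = 3.7e-06), a paralog of Rps4x, Rps19 (0.31, SE 0.09, adjusted p = 0.00412), Rps19bp1 (0.25, SE 0.06, adjusted p = 0.00031) and Rpl39l (0.23, SE 0.08, adjusted p = 0.0116), a paralog known from the testis. Rps19 was the 1 core gene among them. Its probe set was dim, with values from 4.89 to 7.15 and a median of 6.36, and it is the only probe set that names Rps19 alone.

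Markers of several cells moved with Hipk2 beside these genes. Of the white adipocyte genes, 15 of 16 rose, while 16 of 19 luminal epithelium genes, 14 of 16 lymphoid genes and 19 of 19 cell cycle genes fell. With the 4 marker means added to the fit, 23 ribosomal protein genes fell and 0 rose, where 12.9% of all probe sets were called. In that fit the slope of Rps19 turned to -0.28 (adjusted p = 0.211) and that of Rps19bp1 to -0.27 (adjusted p = 0.0203). A fat pad holds a mixture of cells, and fewer cells of a type and less RNA per cell cannot be told apart here. By plate, the median slope was -0.18 on plate 1 with 51 calls, where 33.9% of all probe sets were called, and -0.13 on plate 2 with 1 call, where 3.26% were. The slope itself was not called different between plates for any of the 72 genes (0.00355% of all probe sets, 4 genes at an unadjusted p under 0.05) or between clusters 2 and 1 (4.62% of all probe sets, 2 genes at an unadjusted p under 0.05).

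The same direction was seen, in the same mice, against the mean of the white adipocyte genes. This mean ranged from 10.66 to 12.09, and 53 of the 72 genes fell with it while 5 rose, where 21% of all probe sets fell and 21% rose (42% in either direction). The fallers included 31 of 39 large subunit and 21 of 24 small subunit genes, and the median slope was -0.23. Mitochondrial ribosomal protein genes rose for 63 of 74 and fell for 0, with a median of 0.40. Mrpl27 had 0.77 (SE 0.06, adjusted p = 9.22e-23) and Mrpl10 had 0.58 (SE 0.05, adjusted p = 2.92e-18), both proteins of the large mitochondrial subunit. Cytosolic and mitochondrial sets therefore had slopes of opposite sign on a fat cell marker mean.

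Rpl5 had the smallest adjusted p among the core genes that fell, with log2 values from 10.42 to 11.61 and a slope of -0.41 (SE 0.05, adjusted p = 1.02e-10). Rpl30 (-0.55, SE 0.09, adjusted p = 1.3e-07), Rps28 (-0.47, SE 0.08, adjusted p = 1.34e-07), Rps3 (-0.46, SE 0.08, adjusted p = 2.27e-07) and Rps12 (-0.46, SE 0.09, adjusted p = 3.83e-06) had steeper ones. Rps18 (-0.40), Rpl13 (-0.41) and Rps27 (-0.41) were also among the 8 largest falls. Rpl39 (-0.10, adjusted p = 0.00225), Rps6 (-0.11, adjusted p = 0.00264) and Rpl10 (-0.10, adjusted p = 0.0165) had smaller slopes that passed. Rpl38 had -0.23 (adjusted p = 0.000407), and Rpl11 had -0.17 and did not pass (adjusted p = 0.0812).

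Rps19 rose by 0.57 (SE 0.10, adjusted p = 1.18e-06), Rps19bp1 by 0.49 (SE 0.06, adjusted p = 1.97e-11), Rps4l by 0.44 (SE 0.09, adjusted p = 3.71e-05), Rps27l by 0.43 (SE 0.10, adjusted p = 0.000152) and Rpl39l by 0.28 (SE 0.09, adjusted p = 0.00636). Rps27l is a p53 target in human cells. With the other 3 marker means added, 13 of the 72 genes were called, 10 lower and 3 higher, where 25.8% of all probe sets were called, so the share of members called then lay below the background. On plate 2 alone 1 gene was called (6.4% of all probe sets), and it was higher, with a median slope of -0.09, against 62 calls (40.7% of all probe sets) and a median of -0.25 on plate 1. The difference in slope between plates was called for 0 genes (0.0071% of all probe sets), with 5 at an unadjusted p under 0.05.

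**Figure D2:**
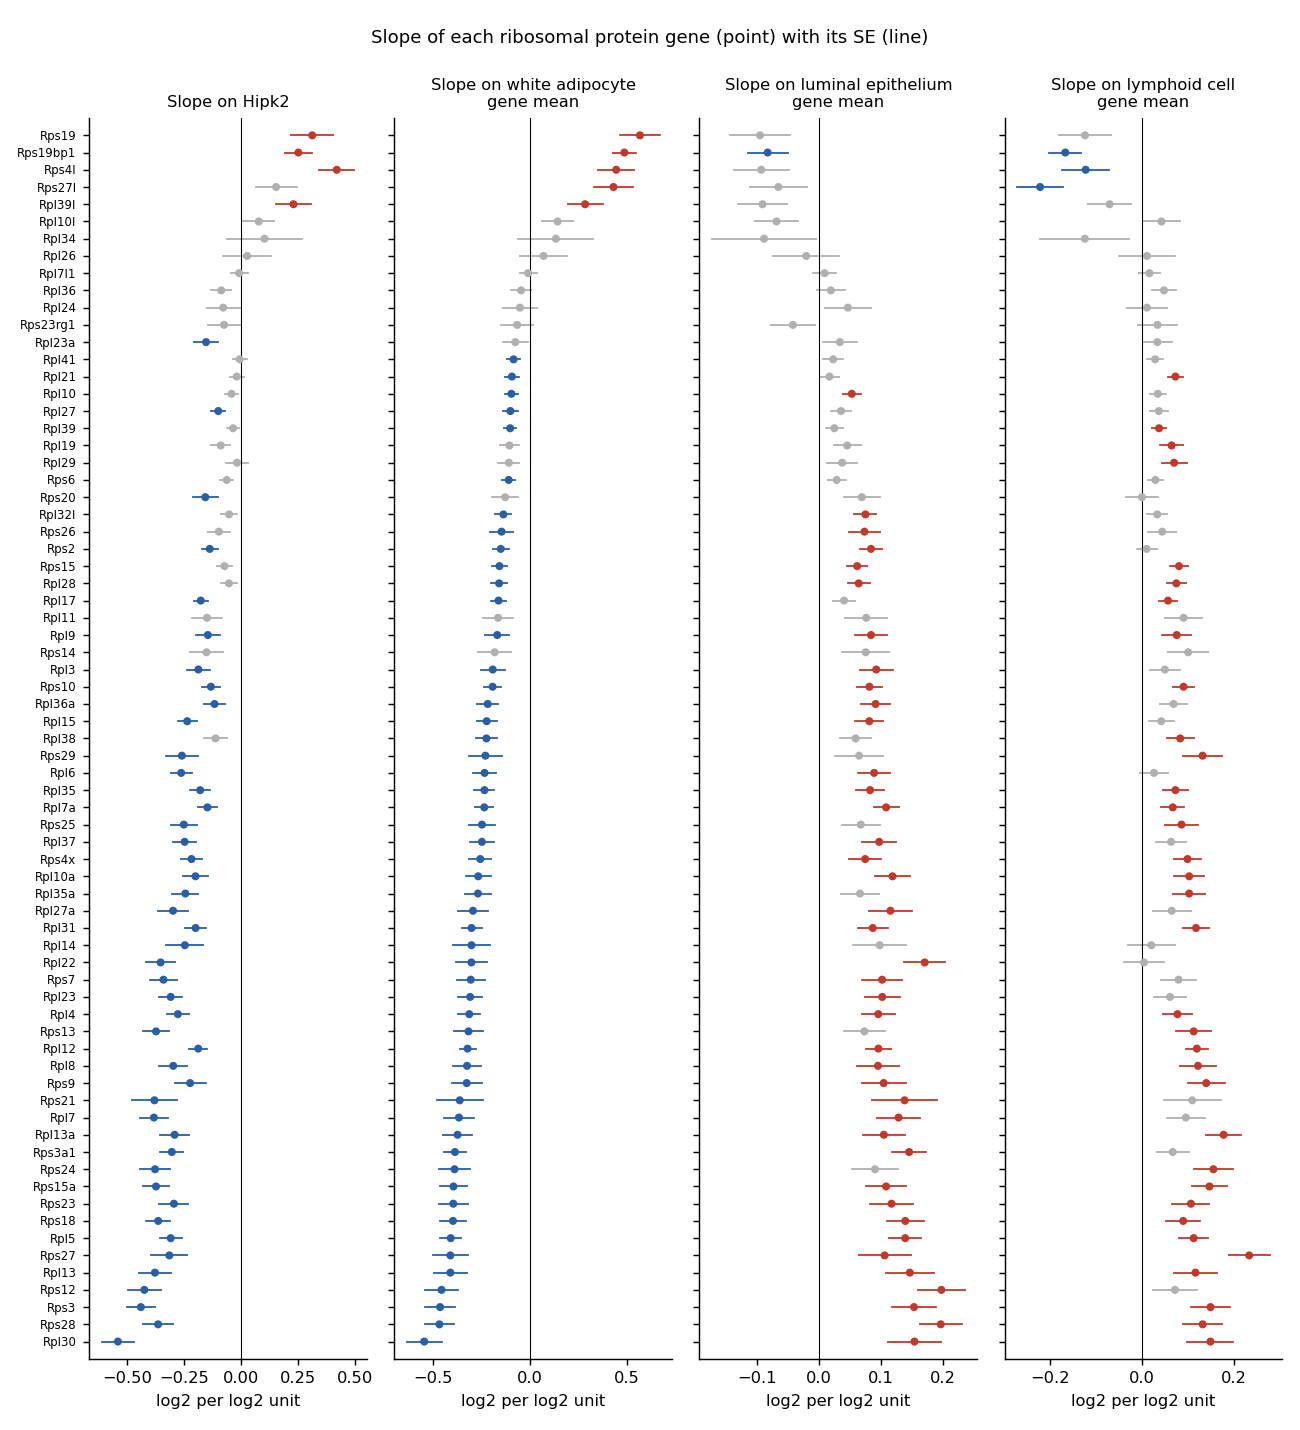
Slopes (points) and their SE (lines), in log2 per log2 unit, of 71 ribosomal protein genes on Hipk2 and on the means of white adipocyte, luminal epithelium and lymphoid genes in 115 mice, ordered by the adipocyte slope; red is called higher, blue called lower and grey not called, and Rpl3l is left out for its wide SE. Core genes such as Rpl30 (-0.55) and Rps28 (-0.47) lie left of 0 for adipocyte genes and right of it for luminal and lymphoid genes, and Rps19, Rps19bp1, Rps4l and Rps27l lie on the opposite sides, called or not.

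With the luminal epithelium mean, which ranged from 6.31 to 9.83, 40 of the 72 genes rose and 1 fell, where 12.2% of all probe sets rose and 15.1% fell (27.3% in either direction). The median slope was 0.08, and 47 of 74 mitochondrial ribosomal protein genes fell, with a median of -0.09. Rps12 (0.20, SE 0.04, adjusted p = 1.33e-05), Rps28 (0.20, SE 0.03, adjusted p = 1.37e-06) and Rpl22 (0.17, SE 0.03, adjusted p = 2.32e-05) had the largest slopes, then Rpl30 (0.15), Rps3 (0.15), Rpl13 (0.15), Rps3a1 (0.14) and Rps18 (0.14). Rpl5 had 0.14 (SE 0.03, adjusted p = 6.13e-06). Rps19bp1 was the gene that fell, by 0.08 (adjusted p = 0.0437). By plate, 31 genes were called on plate 1, where 27.8% of all probe sets were, and 8 on plate 2, where 2.24% were, all 8 higher, with medians of 0.06 and 0.16. With each array centred on its median the count was 24 of 72, below the 40.7% of all probe sets called in that fit, and with the other marker means added it was 18, where 12.9% of all probe sets were called.

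With the lymphoid mean, which ranged from 6.07 to 9.02, 34 genes rose and 3 fell, where 17.2% of all probe sets rose and 17.1% fell (34.2% in either direction). All 34 were core genes, 20 of the large subunit and 14 of the small, and the median slope was 0.07. Rps27, a zinc finger protein of the small subunit, had the largest slope, at 0.23 (SE 0.05, adjusted p = 1.21e-05), from values between 8.58 and 10.22. Rpl13a had 0.18 (SE 0.04, adjusted p = 6.33e-05) and Rps24 had 0.16 (SE 0.04, adjusted p = 0.00195), followed by Rps3 (0.15), Rpl30 (0.15), Rps15a (0.15), Rps9 (0.14) and Rps28 (0.13). The genes that fell were Rps27l (-0.22, SE 0.05, adjusted p = 0.000179), Rps19bp1 (-0.17, SE 0.03, adjusted p = 5.57e-05) and Rps4l (-0.12, SE 0.05, adjusted p = 0.0494). Rps27 and its paralog Rps27l thus had slopes of opposite sign. Mitochondrial ribosomal protein genes fell for 52 of 74. On plate 1 alone 27 genes were called (30.5% of all probe sets), on plate 2 alone 1 (5.34%), and 12 of 72 with the other marker means added, which is near the 15.8% of all probe sets called in that fit. On plate 2 alone the slope of Rps27 was 0.02 (adjusted p = 0.971).

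**Figure D3:**
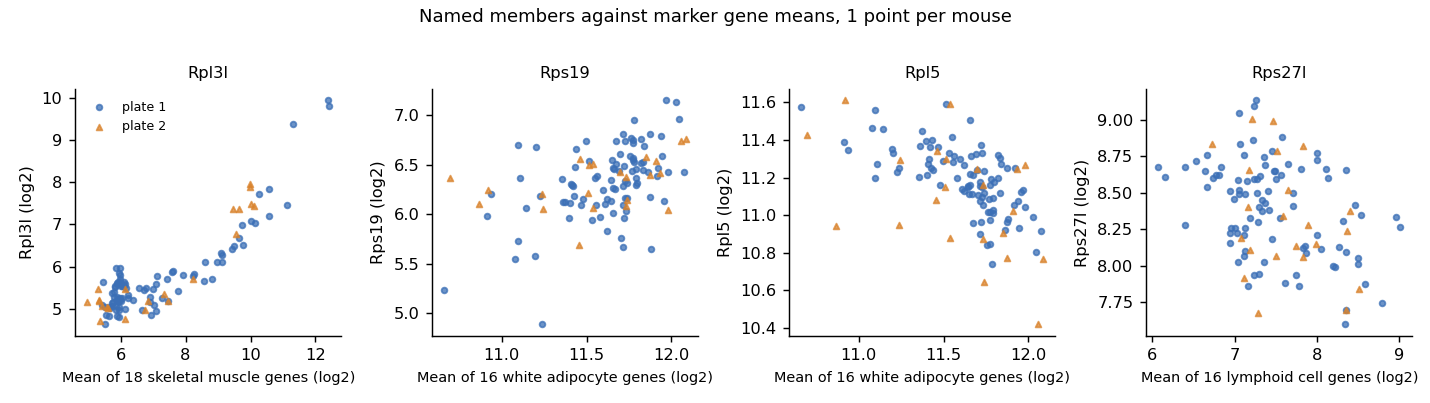
Log2 values of Rpl3l, Rps19, Rpl5 and Rps27l (vertical axes) against the mean log2 value of a marker gene list (horizontal axes), 1 point per mouse, blue circles for plate 1 and orange triangles for plate 2. Rpl3l reaches 9.93 in mice with high skeletal muscle genes, and Rps19 and Rpl5 run in opposite directions against white adipocyte genes.

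Other genes of the translation machinery were read from the same fits. Of 5 other ribosomal protein genes with symbols outside the rule, 3 fell with Hipk2 and 3 fell with the adipocyte mean, and 0 rose. Of all probe sets, 17.2% fell with Hipk2 and 21% with the adipocyte mean. The lowest p with Hipk2 was that of Rplp1, a protein of the ribosomal stalk (-0.25, SE 0.05, adjusted p = 1.67e-05). Rpsa, also a laminin receptor, fell by 0.35 with the adipocyte mean (SE 0.08, adjusted p = 6.91e-05). The difference between plates was called higher for 3 of these 5 as well, where 1.37% of all probe sets were. They were Rplp1 (0.38, adjusted p = 0.00957), Rpsa (0.47, adjusted p = 0.0137) and Rplp0 (0.30, adjusted p = 0.0349).

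Ribosome biogenesis genes fell with Hipk2 for 17 of 25 and rose for 1, where 17.2% of all probe sets fell and 18.5% rose. Wdr43 (-0.48, SE 0.05, adjusted p = 3.11e-16), Nop56 (-0.56, SE 0.05, adjusted p = 6.67e-16) and Nop58 (-0.66, SE 0.07, adjusted p = 4.78e-13), which act in ribosomal RNA processing, had the lowest p. None of the 25 was called in the test of the difference between plates, with 3 at an unadjusted p under 0.05. Both snoRNA host genes measured fell with Hipk2, Gas5 by 0.74 (SE 0.11, adjusted p = 5.5e-09) and Snhg5 by 0.48 (SE 0.07, adjusted p = 7.38e-09).

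Of 22 translation factors, 9 were lower and 1 was higher with Hipk2, a share of 45.5% called against 35.8% of all probe sets. The one that rose was Eif4ebp1, the mTOR-controlled repressor of cap-dependent translation (0.57, SE 0.07, adjusted p = 2.73e-12). Of 14 S6 kinase and mTOR pathway genes, 6 rose with Hipk2 and 1 fell, a share of 50% called. These shares are not far from that of all probe sets. Rps6ka3 (0.53, SE 0.07, adjusted p = 3.65e-10), Tsc2 (0.29, SE 0.04, adjusted p = 3.89e-10) and Mtor (0.33, SE 0.05, adjusted p = 1.55e-07) had the lowest p. Neither Eif4ebp1 nor the S6 kinase and mTOR genes were called in the test of the difference between plates, where 1 S6 kinase and mTOR gene had an unadjusted p under 0.05 and Tpt1 was the translation factor called (0.20, SE 0.05, adjusted p = 0.0188).

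**Figure D4:**
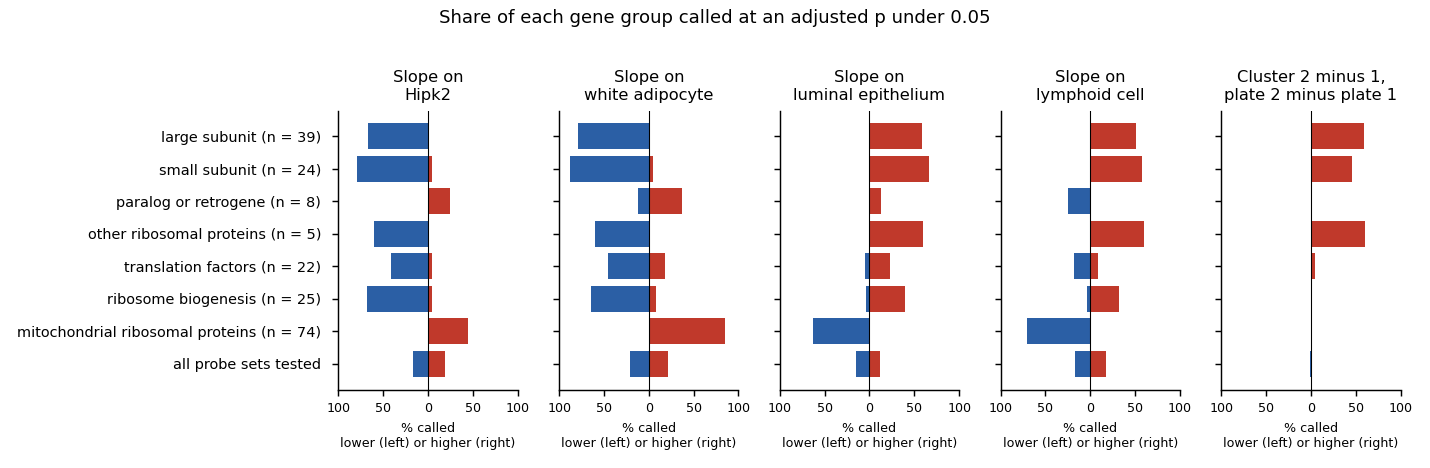
Percentage of each gene group called lower (blue, left) and higher (red, right) at an adjusted p under 0.05 in 4 slope fits on 115 mice and in the test of whether the difference of cluster 2 from cluster 1 depended on plate (105 mice). Large and small subunit genes are blue for Hipk2 and adipocyte genes, except 1 small subunit gene that is red in both, and red in the other panels. Mitochondrial ribosomal protein genes have the opposite colours in the slope panels, and the right panel has few calls outside ribosomal protein genes.

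The ribosomal protein gene that rose with skeletal muscle genes was Rpl3l, the paralog of Rpl3 known from striated muscle. It ran from 4.63 to 9.93 over the mice with a median of 5.49, and had a slope of 0.50 (SE 0.03, adjusted p = 2.27e-36) on the muscle mean. Another 4 genes fell, so 5 of 72 were called (6.94%), where 4.73% of all probe sets rose and 4.84% fell (9.57% in either direction). Rps10, Rpl19, Rpl21 and Rpl10 made up the 4, and Rpl10 had a slope of -0.02 (SE 0.01, adjusted p = 0.0345). Rpl3l was called on each plate alone, and the 4 others on neither. Its values fell into 2 separated levels, with 99 mice in the lower and 16 in the higher, 2.39 log2 units apart. No other gene of the 72 met that rule (1 of 72, 1.39%), against 2.91% of all genes. The genes whose values were most like those of Rpl3l over 115 mice were Ano5 (r = 0.96), Asb14 (r = 0.96) and Stac3 (r = 0.96), given as a description with cluster and plate means removed.

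Paralogs were set against their parent genes in the same way. Rpl3l had a slope of -1.53 on Rpl3 (SE 0.46, adjusted p = 0.00798, with 27.9% of all probe sets called), which did not pass on plate 1 alone (-1.41, adjusted p = 0.0749) or after repeated quantile normalization (-1.22, adjusted p = 0.0583). Rpl7l1 had 0.14 on Rpl7 (SE 0.05, adjusted p = 0.0175, with 28.7% called), which did not pass on plate 1 alone (0.09, adjusted p = 0.233). Rpl39l on Rpl39 (-0.18, adjusted p = 0.696, with 25.2% called), Rpl10l on Rpl10 (0.10, adjusted p = 0.772, with 28.4% called), Rps27l on Rps27 (-0.12, adjusted p = 0.395, with 33.7% called) and Rps4l on Rps4x (0.00416, adjusted p = 0.989, with 31.3% called) did not pass.

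Core genes moved together from mouse to mouse. With cluster and plate means removed, the median correlation over 1953 pairs of core genes was 0.50, and the first principal component held 51.6% of their variance. Cluster and plate were removed as separate terms, so the cluster by plate difference described above stayed in these values. Over all 72 genes the median was 0.41 over 2556 pairs, from -0.44 for Rpl12 with Rps19bp1 to 0.89 for Rpl7 with Rps13. Mitochondrial ribosomal protein genes had a median of 0.47 over 2701 pairs. The median for the 72 genes was 0.37 on plate 1 and 0.32 on plate 2, with cluster means removed within each plate. For core genes it was 0.48 on plate 1 and 0.41 on plate 2. Mitochondrial ribosomal protein genes had 0.50 and 0.45 there, so on each plate alone their median lay above that of core genes. With each array centred on its median it was 0.47 for core genes and 0.53 for mitochondrial ones. Arrays share normalization and tissue makeup across all these points, and no test was made.

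**Figure D5:**
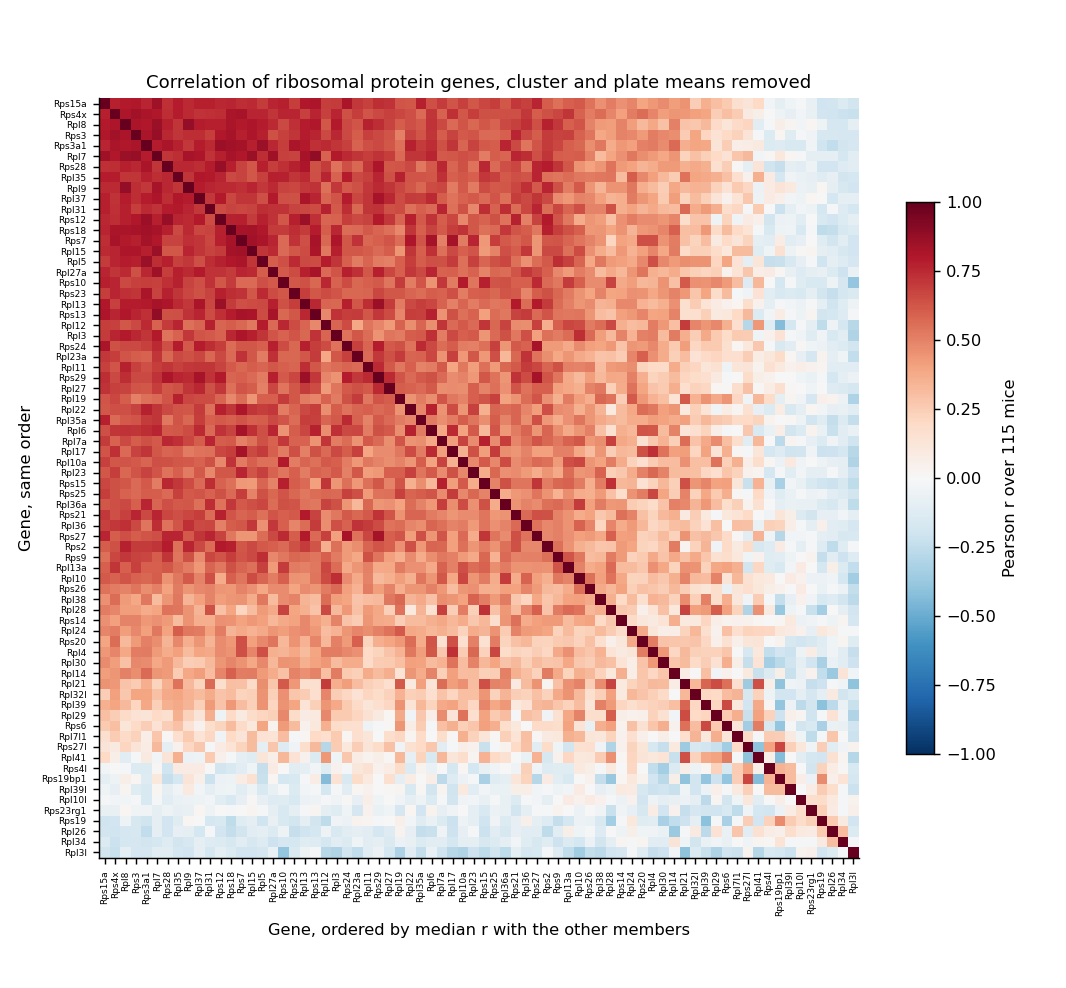
Pearson correlation over 115 mice between each pair of the 72 ribosomal protein genes after cluster and plate means were removed, ordered by each gene's median correlation with the others. Core genes form the red block at the upper left led by Rps15a (median r = 0.64), and Rpl3l, Rpl34, Rpl26, Rps19, Rps19bp1 and most paralogs lie in the pale to blue band at the right and bottom edges.

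Rps15a (median r with the other genes 0.64), Rps4x (0.64) and Rpl8 (0.63) were nearest to the rest. Farthest were Rpl3l (-0.18), Rpl34 (-0.11), Rpl26 (-0.10) and Rps19 (-0.09). Each of these 4 had 1 probe set that names it alone. Rpl34, a large subunit protein, had an SD of 0.61 after cluster and plate means were removed, and it ran from 3.25 to 8.07 with a next lowest mouse at 5.24, so 1 mouse set much of its spread. The gene most like Rpl34 was Ptgdr, at r = -0.37. Rps21, a small subunit protein with an SD of 0.39, was most like Rpl13 (r = 0.79), Rps12 (r = 0.77) and Rpl7 (r = 0.76). Rps27l was most like Ufc1 (r = 0.73), Mir505 (r = -0.73) and Tomm5 (r = 0.72). Rpl26 was most like Kmt5a (r = 0.48), Glt6d1 (r = 0.44) and Sp5 (r = 0.43). Rps19 was most like Mpp2 (r = 0.60), 1110065P20Rik (r = 0.57) and the adipocyte regulator Cebpa (r = 0.56), which lies within 20 Mb of it on the same chromosome, so a shared parental segment and a shared cell type cannot be told apart.

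Different probe sets of a gene were compared with the one used. The 72 genes had 373 probe sets that name them alone, with 19 genes on 1 probe set and up to 41 for Rpl21, and such numbers can include copies of processed pseudogenes, with which a probe may share sequence. For Rps12 the lowest correlation of any of its 12 probe sets with the one used was 0.96, and for Rpl5, with 5, it was 0.93. The lowest values were those of Rpl36 (lowest r = -0.17 over 10 probe sets), Rpl31 (0.26 over 8), Rps24 (0.27 over 4) and Rps15a (0.42 over 3). The median r was still 0.97 for Rpl36 and 0.94 for Rpl31, whose dimmest probe sets had means of 6.01 and 5.69. Other genes with low values included Rps21 (0.63) and Rpl13a (0.68), each with 2 probe sets. The chosen probe sets of 2 genes were equal to another probe set on every array.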

How the data were processed

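Total RNA of mammary fat pads from 115 mice was extracted with Trizol and a column clean-up and biotin-labelled RNA was hybridised, according to the labels. The authors deposited log2 expression values from RMA in oligo, per the submitters' processing notes. The sources used here name neither software versions nor the array's genome build. Of 28204 probe sets, 21141 had 1 gene symbol, 1881 several and 5182 none. Of those with 1 symbol, 21111 were matched by gene identifier to the RefSeq gene table of GRCm38.p6 and were given its symbol, changed or not. Another 63 probe sets name a ribosomal protein gene together with other genes and were not used.

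Linear models were fitted over all probe sets with limma 3.58.1 in R 4.3.3, with empirical Bayes moderation and no filter on dim probe sets. Terms were lymph cluster and array plate, plus 1 covariate for a slope, whose own probe sets were left out. The cluster by plate fit used 4 group means. Levels were separated with mclust 6.1.1 (BIC gain over 10, at least 3 SD apart, at least 10 mice in each). Some of the fits were tried on simulated data. No outcome of that is reported here, so it is not used as evidence for any fit or for the separation of levels. Replicates are mice numbered in accession order.

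The ribosomal protein genes and all gene lists were chosen with earlier results of these data known. Named genes were the 8 largest called rises and falls per comparison, both genes of each paralog pair, the 6 members with the largest residual SD with the 3 genes most like each, members with 2 levels, Rpl39, Rps6, up to 3 genes per list with the smallest p, and Rpl5, Rpl11, Rps19, Rpl38, Rpl13a, Rps3, Rpl10 and Rps4x. Cell cycle, luminal, lymphoid, muscle and adipocyte lists had 19, 19, 16, 18 and 16 genes measured. Alternatives changed normalization, covariates, plates used, probe set choice, moderation, array weights, a filter on dim probe sets and the scale.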

Additional observations from a re-analysis of the deposited data

Results flagged for a closer look

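The difference of lymph cluster 2 from cluster 1 was itself different between array plates for 34 of the 72 ribosomal protein genes (limma with an interaction contrast, 105 mice), where 2.52% of all probe sets were called. The count was 20 after quantile normalization was repeated, 8 with ranks and as low as 22 without 1 mouse of plate 2. The largest, on the log2 scale, were those of Rps23 (0.62), Rps28 (0.57), Rpl13a (0.56), Rpl8 (0.50), Rps3 (0.49), Rps4x (0.49), Rpl24 (0.47) and Rps15a (0.44), each more positive on plate 2. The contrast was noticed in the values by plate before it was tested on the same mice, with 1 spread taken from both plates.

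In cluster 3, with 9 mice on plate 1 and 1 on plate 2, 1 mouse stood apart from the others in 6 of 73 measures examined by Dixon's ratio. Chance gives about 1 in 20 for independent measures, which these correlated genes are not. The mouse apart was the one on plate 2 for Rpl13a, Rps10 and Rps2, so there the gap is also one between plates, and a mouse of plate 1 for the other 3 genes. The ratio of the gap to the whole range was 0.583 for Rps10, whose lowest mouse was at 11.33 with the next at 11.70. It was 0.548 for Rpl13a (lowest 10.37, next 10.92), 0.507 for Rps26 (lowest 11.47, next 11.70) and 0.477 for Rps2 (lowest 11.98, next 12.21). The highest mouse stood apart for Rps24 (0.54, with 10.82 against 10.34) and Rpl27a (0.502, with 11.56 against 11.17).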

How the results depend on the processing

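No paired analysis was possible because the labels give no replicate numbers shared between groups. Of 449 recomputed values of single named genes, which leave out the slopes of paralogs on their parent genes, 390 kept their direction and side of the threshold, 48 no longer passed, 6 newly passed and 5 changed sign; the cause of each was not tested. Those 5 were slopes on Hipk2: Rpl39 (0.00994) with centred arrays, and with the 4 marker means added Rps6 (0.0222), Rpl39 (0.0928), Rps19 (-0.28) and Rps19bp1 (-0.27). Counts of called genes that moved by over 1.5 times were these. With marker means added, 2 for plate, 23 for Hipk2, 13 for adipocyte, 18 for luminal, 12 for lymphoid and 8 for muscle. On plate 2 alone, where 21 mice were fitted without the mouse of cluster 3, 1 for Hipk2, 1 for adipocyte, 8 for luminal, 1 for lymphoid and 1 for muscle. With centred arrays, 2 for plate, 24 for luminal and 10 for muscle. For muscle, 1 on plate 1 alone and 1 with ranks. For the cluster by plate difference, 20 after quantile normalization was repeated and 8 with ranks, and 22 to 41 without 1 mouse of plate 2. Paralog slopes that no longer passed were Rpl3l on Rpl3 (-1.41 on plate 1, -1.22 after quantile normalization) and Rpl7l1 on Rpl7 (0.0863 on plate 1, 0.12 with centred arrays); those that changed sign without passing in either fit were Rpl39l on Rpl39 (0.52, centred), Rpl10l on Rpl10 (-0.0290 on plate 1, -0.0551 after quantile normalization) and Rps4l on Rps4x (-0.34 on plate 1, -0.30 after quantile normalization). The cluster by plate test and the tests of slopes between plates or clusters were chosen after seeing the data. Cluster 3 had 1 mouse on plate 2 and was not fitted there.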
